A study of Mus musculus with 32 samples.

Results

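The comparison described here is the difference in liver gene expression between 28-week-old mouse offspring of parents on a high-fat (HF) diet and age-matched offspring of parents on a low-fat (LF) diet. Its members are the 18 arrays of 28-week-old livers, chosen by their sample titles, of 32 arrays in the series, with 9 mice in each group and 1 array per mouse. The HF/HF group came from parents that received 45% of energy as fat, and the LF/HF group came from parents that received 9% of energy as fat. The LF diet was a standard chow of another maker, with more protein and carbohydrate, so fat content was not separated from these. In both groups the mother and the father ate the diet from 6 weeks before mating until the pups were weaned. All mice were male C57Bl/6J offspring and all were weaned onto the HF diet themselves, so that the 2 groups shared everything the labels give except the diet of the parents. No group had a lean offspring diet, the diets of mother and father were not separated, and the labels do not tell which mice were littermates, so p-values treat mice as independent and may be too small if litters were shared.

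The adult liver makes cholesterol from acetyl-CoA through mevalonate and a long series of sterol intermediates. The enzymes of this route are induced together by the transcription factor SREBP2, which is held inactive in the endoplasmic reticulum while the cell has enough cholesterol, and SREBP1c does the same for the enzymes of fatty acid synthesis. Cholesterol leaves the hepatocyte into bile through the paired transporters ABCG5 and ABCG8, and it enters from high-density lipoprotein through SR-BI.

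Values below are log2 of the deposited intensities, and a difference is always HF/HF minus LF/HF on that scale, so that 1 unit is a doubling. A gene met the criterion taken over from the methods, named the study criterion below, when limma gave an unadjusted P under 0.05 and an absolute fold change over 1.2. Of 21113 genes tested, 474 met the study criterion (2.25%), of which 217 were higher in HF/HF offspring (1.03% of all genes) and 257 were lower (1.22%). No gene passed an adjusted p of 0.05 in limma, whereas 1041 genes had an unadjusted P under 0.05 (4.93%), against 1056 that would be expected with no difference at all. The smallest adjusted p were 0.477 for Npy4r, a receptor for pancreatic polypeptide with a level among the lowest on the array that was singled out here after its values were seen, and 0.482 for Pdf, the mitochondrial peptide deformylase. For every other gene named below the adjusted p was 0.95 or higher. For 119 genes followed in detail an exact permutation test of the difference in means was added, over all 48620 splits of the 18 mice. It is two-sided and unadjusted and is written as exact P. Most of the 119 genes were chosen by their values in these same mice. A small exact P therefore follows in part from that choice and is no separate support. Of the 119 genes 97 met the study criterion, which rests on limma, and for 26 of the 97 the exact P was above 0.05, up to 0.0865. No gene had 9 HF/HF values all above or all below the 9 LF/HF values. Counts of mice above or below every mouse of the other group are given below for genes chosen after their values were seen. How many of all genes reach the same counts was not determined here. The differences were small: 95.5% of all genes differed by less than 1.2-fold, the median fold of genes that met the criterion was 1.26, and 20 of them differed by more than 1.5-fold, 9 higher and 11 lower. The median difference of all genes was -0.0036, and 48.6% of all genes were higher in HF/HF offspring at any size.

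**Figure D1:**
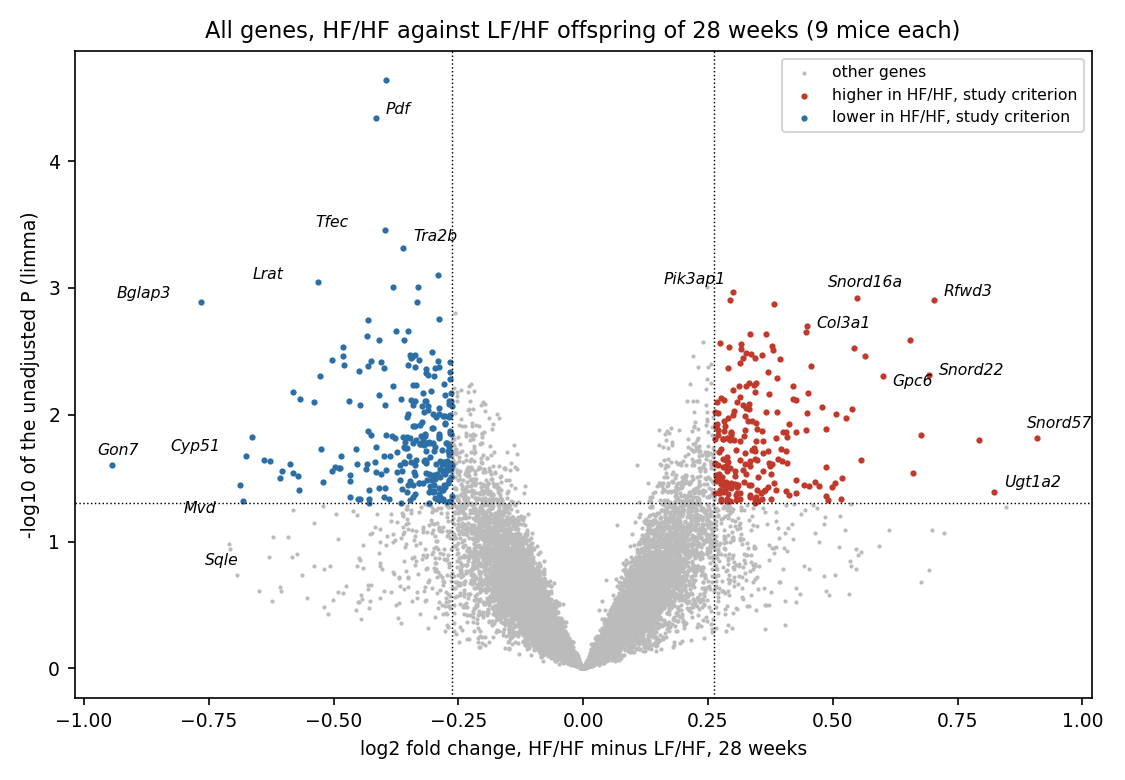
Log2 fold change (HF/HF minus LF/HF, horizontal axis) against -log10 of the unadjusted limma P (vertical axis) for all 21113 genes at 28 weeks, with the 217 genes higher and the 257 genes lower in HF/HF offspring by the study criterion in red and blue. Dotted lines mark the P limit of 0.05 and a 1.2-fold difference, and Pdf lies highest among the labelled genes.

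The arrays resembled each other closely. The correlation of any pair over all genes lay between 0.979 and 0.990, and the median of an array on the linear scale of the deposited intensities lay between 8.41 and 8.89 for HF/HF mice and between 8.54 and 8.79 for LF/HF mice. A few mice stood apart in parts of the transcriptome. LF/HF mouse 8 had a mean log2 value of 5.98 over 10 skeletal muscle markers, whereas the other mice of both groups lay between 2.27 and 2.76. HF/HF mouse 3 had the highest mean over the cell division markers (2.98) and over interferon-stimulated genes (5.69), and LF/HF mouse 2 had the lowest mean over the small nucleolar RNAs (5.43). Without these 3 mice, a choice made after seeing the data, 647 genes met the study criterion. Defining markers of hepatocytes were high in every mouse, with a mean over 8 markers of 12.3 to 12.6 in HF/HF and 12.4 to 12.5 in LF/HF mice.

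Promoters of enzymes of cholesterol synthesis are shown because the route is known to be controlled through them. SREBP2 binds sterol regulatory elements next to CCAAT boxes, which bind NF-Y, and GC boxes, which bind Sp1. The promoters of 4 enzymes that were lower in HF/HF offspring, and that of Hmgcs1, the only one of the 15 promoters examined with the sterol regulatory element searched for, are given below as RefSeq sequences of GRCm38.p6 that span 250 bases before the transcription start to 50 after it. Capitals mark CCAAT on either strand (CCAAT or ATTGG) and, in Hmgcs1, the element TCACNCCAC.
Mvd, chr8:122443373-122443672, minus strand: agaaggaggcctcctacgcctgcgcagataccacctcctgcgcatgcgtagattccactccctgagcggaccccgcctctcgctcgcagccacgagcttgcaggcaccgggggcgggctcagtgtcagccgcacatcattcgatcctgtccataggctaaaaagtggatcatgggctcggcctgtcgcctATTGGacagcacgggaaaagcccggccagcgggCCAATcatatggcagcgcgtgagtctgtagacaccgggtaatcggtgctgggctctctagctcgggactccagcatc
Cyp51, chr5:4104648-4104947, minus strand: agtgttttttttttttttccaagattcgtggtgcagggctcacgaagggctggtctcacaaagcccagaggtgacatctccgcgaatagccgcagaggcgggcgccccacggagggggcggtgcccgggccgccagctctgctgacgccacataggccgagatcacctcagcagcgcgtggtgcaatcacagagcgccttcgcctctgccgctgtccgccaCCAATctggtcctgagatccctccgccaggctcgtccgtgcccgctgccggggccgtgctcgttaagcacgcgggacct
Msmo1, chr8:64733529-64733828, minus strand: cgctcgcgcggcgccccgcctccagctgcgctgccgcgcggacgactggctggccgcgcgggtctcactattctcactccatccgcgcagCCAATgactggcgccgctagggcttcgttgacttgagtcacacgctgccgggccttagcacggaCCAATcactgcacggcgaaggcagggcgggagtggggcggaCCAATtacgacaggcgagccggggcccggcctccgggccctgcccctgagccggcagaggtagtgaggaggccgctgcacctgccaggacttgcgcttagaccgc
Lss, chr10:76531355-76531654, plus strand: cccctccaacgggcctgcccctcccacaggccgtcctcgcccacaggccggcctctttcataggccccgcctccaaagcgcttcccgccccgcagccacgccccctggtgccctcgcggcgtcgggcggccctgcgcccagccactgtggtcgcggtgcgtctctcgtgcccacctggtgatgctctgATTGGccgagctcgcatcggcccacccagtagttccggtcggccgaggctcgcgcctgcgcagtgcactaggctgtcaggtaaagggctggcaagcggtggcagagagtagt
Hmgcs1, chr13:119690101-119690400, plus strand: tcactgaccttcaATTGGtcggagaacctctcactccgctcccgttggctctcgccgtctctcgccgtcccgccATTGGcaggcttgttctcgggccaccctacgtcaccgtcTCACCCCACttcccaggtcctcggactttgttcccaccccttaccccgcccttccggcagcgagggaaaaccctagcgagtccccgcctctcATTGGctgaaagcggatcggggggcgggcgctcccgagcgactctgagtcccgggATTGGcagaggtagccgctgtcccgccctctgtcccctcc
Of the 20 enzymes measured, 15 had such a promoter sequence. CCAAT was found on either strand in 14 of these 15 genes, against 41.1% of all 27025 genes with a sequence. The GC box GGGCGG was found on either strand in 13 of 15, against 38.2% of all genes, and TCACNCCAC in 1 of 15, against 1.44% of all genes. The CCAAT and GC box searches look for different letters, although neighbouring matches can share bases, and a match describes these letters only.

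Of 20 enzymes of cholesterol synthesis, 18 were lower in HF/HF offspring, and 7 of them met the study criterion (35.0%, against 1.22% of all genes in that direction). Their median difference was -0.36, against -0.0036 for all genes, and no enzyme met the criterion as higher. All 8 measured enzymes from acetyl-CoA to farnesyl and geranylgeranyl pyrophosphate were lower, and 10 of 12 enzymes from squalene to cholesterol were lower.

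In the first arm of the route, Mvd, which makes isopentenyl pyrophosphate, lay between 2.78 and 4.63 (median 3.70) in HF/HF and between 3.52 and 6.14 (median 4.14) in LF/HF mice. LF/HF mouse 2 was highest with 6.14, followed by LF/HF mouse 5 with 5.40 and LF/HF mouse 9 with 5.22, and the difference was -0.68 ± 0.32 (SE, exact P = 0.0865). By the limma criterion, the call of Mvd was lost on leaving out any of 11 of the 18 mice. Acat2, the cytosolic thiolase that starts the route, was also lower by the criterion (-0.36), whichever mouse was left out. Hmgcs1 (-0.34), Pmvk (-0.36), Mvk (-0.26), Fdps (-0.34) and Ggps1 (-0.10) were lower without meeting it.

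In the sterol arm, Cyp51, which removes the 14-alpha methyl group of lanosterol, lay between 5.83 and 7.48 (median 6.44) in HF/HF and between 6.41 and 8.21 (median 7.00) in LF/HF mice. LF/HF mice 5, 2 and 7 were highest, with 8.21, 8.18 and 7.97, and 4 HF/HF mice lay below every LF/HF mouse. The difference was -0.68 ± 0.27 (SE, exact P = 0.0493), and it met the criterion whichever mouse was left out. Msmo1, the next demethylase of the route, had a median of 7.80 in HF/HF mice and 8.28 in LF/HF mice and a difference of -0.60 ± 0.26 (SE, exact P = 0.0610). Fdft1, which makes squalene, ranged over 6.27 to 7.48 in HF/HF and 6.81 to 7.87 in LF/HF mice, with 6 HF/HF mice below every LF/HF mouse and a difference of -0.42. Lss, which closes the sterol rings, was lower by 0.37. The calls of Msmo1, Fdft1 and Lss were each lost on leaving out LF/HF mouse 2, and also without LF/HF mice 5, 7 or 9 for Msmo1, without HF/HF mouse 3 or LF/HF mouse 5 for Fdft1, and without HF/HF mouse 5, HF/HF mouse 9 or LF/HF mouse 9 for Lss.

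The remaining enzymes of the sterol arm spread more widely. Sqle, a rate-limiting enzyme of the route, had the lowest fold change of the route (-0.71 ± 0.43, SE) and did not meet the criterion (exact P = 0.176), and its values ran over 3.18 to 6.03 in HF/HF and 3.67 to 7.08 in LF/HF mice. Sc5d (-0.22) was under the limma P limit but below 1.2-fold, and Hsd17b7 (-0.35), Nsdhl (-0.37) and Dhcr7 (-0.29) were lower without meeting the criterion. Ebp (0.11), an isomerase of sterol intermediates, had a positive difference that was not past the test, and Tm7sf2 lay at -0.01, with a sign that turned under several settings.

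Averaged over the 20 enzymes, a mouse lay between 6.46 and 7.38 (median 6.71) in HF/HF and between 6.63 and 7.88 (median 6.97) in LF/HF offspring, with means of 6.80 ± 0.34 for HF/HF and 7.13 ± 0.45 for LF/HF (SD, n = 9 each). The widest gap between neighbouring mice, sought after the values were seen, lay between 6.97 and 7.28. LF/HF mice 2, 5, 7 and 9 and HF/HF mice 2 and 6 lay above it, and the 12 others lay below it. A gap nearly as wide lay between LF/HF mouse 5 (7.59) and LF/HF mouse 2 (7.88). On leaving out 1 mouse at a time, the enzymes of the first arm that met the criterion numbered 2 to 6 and those of the sterol arm 1 to 7, with the lowest count in the sterol arm without LF/HF mouse 2. The median difference stayed between -0.42 and -0.27 in the first arm and between -0.45 and -0.23 in the sterol arm. The headers of a second table of the same arrays give array names in 2 series. Within series 1, with 4 HF/HF and 5 LF/HF mice, no enzyme met the criterion and the medians of the arms were -0.27 and -0.20. Within series 2, with 5 HF/HF and 4 LF/HF mice, 3 and 2 enzymes met it and the medians were -0.44 and -0.43. Without the 3 mice that stood apart, 1 enzyme of the first arm and no enzyme of the sterol arm met the criterion, with medians of -0.28 and -0.23.

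**Figure D2:**
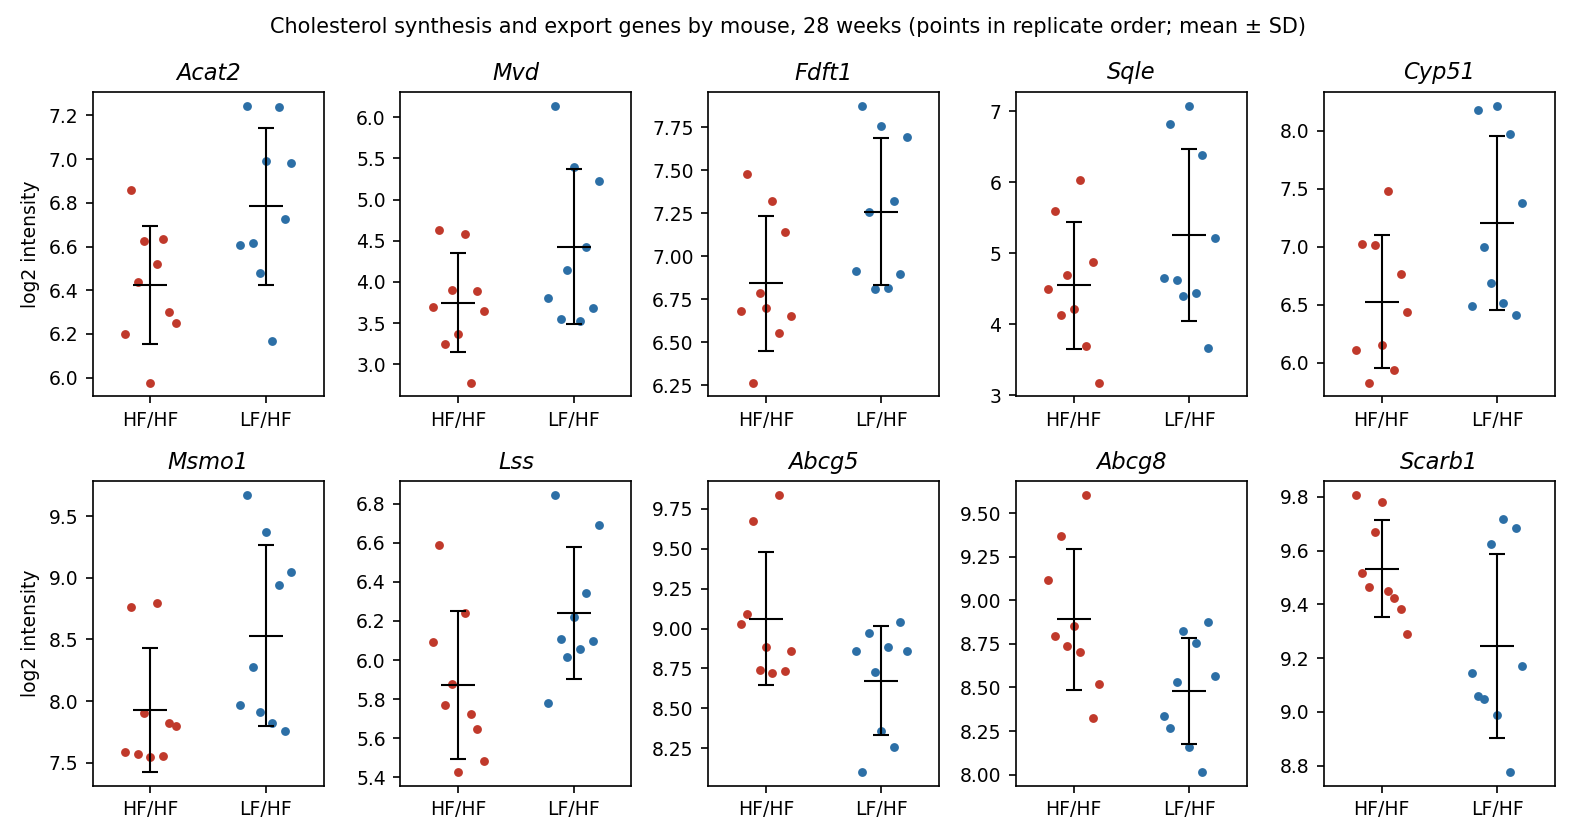
Log2 intensity (vertical axis) of 7 enzymes of cholesterol synthesis and of Abcg5, Abcg8 and Scarb1 in each of the 9 HF/HF (left) and 9 LF/HF (right) mice at 28 weeks, in order of mouse number within a group, with group mean and SD. The groups overlap in all 10 panels, and LF/HF mouse 2 is highest for Mvd (6.14) and lowest for Abcg5 (8.10).

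The regulators of the route did not show the same displacement. Of 14 genes for SREBP factors and their processing, 7 were higher and 7 lower, none met the criterion, and the median difference was -0.0025. Srebf1 and Srebf2, which encode the SREBP factors, differed by -0.01 and 0.00. Insig1, an SREBP2 target that retains the SREBP complex in the endoplasmic reticulum, differed by -0.25. Mbtps1, the site-1 protease that cuts SREBP in the Golgi, had an exact P of 0.00177, but its difference of 0.24 was below the 1.2-fold limit.

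Genes for cholesterol export and uptake went partly the other way. Of 18 genes for cholesterol uptake and trafficking, 12 were higher in HF/HF offspring, 3 of the 18 by the criterion (against 1.03% of all genes), and 1 gene was lower by the criterion. These 4 genes became 2 without LF/HF mouse 2 and 5 without HF/HF mouse 2. Abcg5, a subunit of the sterol exporter into bile, lay between 8.72 and 9.84 (median 8.88) in HF/HF and between 8.10 and 9.04 (median 8.86) in LF/HF mice. HF/HF mice 3 and 7 were highest with 9.68 and 9.84, and LF/HF mice 2, 5 and 7 were lowest with 8.10, 8.36 and 8.26. The difference was 0.39 ± 0.16 (SE, exact P = 0.0482), and the call was lost without HF/HF mouse 3, HF/HF mouse 7 or LF/HF mouse 2.

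Abcg8, its partner, is divergently transcribed from the neighbouring position on chromosome 17. It lay between 8.33 and 9.60 (median 8.79) in HF/HF and between 8.02 and 8.87 (median 8.53) in LF/HF mice, a difference of 0.41 ± 0.15 (SE, exact P = 0.0273) that met the criterion whichever mouse was left out. The same 3 LF/HF mice, 2, 5 and 7, were lowest for Abcg8 and lay below every HF/HF mouse there, and they were also among the 4 LF/HF mice with the highest mean over the enzymes of synthesis. Scarb1, the receptor for high-density lipoprotein, was higher by 0.29, with 6 LF/HF mice below every HF/HF mouse, and its call was lost on leaving out any of 6 mice. Stard4, a carrier of cholesterol within the cell, was the gene of the list that was lower by the criterion, by 0.29, and its call was lost without any of 4 mice. Of 17 genes of fatty acid synthesis, 11 were lower and none met the criterion. Among them Thrsp (-0.79), Acss2 (-0.35), Acly (-0.35) and Fasn (-0.42) were nearest to it.

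Small nucleolar RNAs (snoRNAs) were mostly higher in HF/HF offspring. They guide the chemical modification of ribosomal RNA, box C/D snoRNAs (Snord) its methylation and box H/ACA snoRNAs (Snora) its pseudouridylation, and most are cut out of introns of host genes that encode ribosomal proteins or other proteins of translation. Of 58 snoRNA genes measured, 50 were higher with the HF parental diet (against 48.6% of all genes). Of the 58, 12 met the study criterion as higher (20.7%, against 1.03% of all genes), and 1, Snora75 (-0.43), was lower by it, a call lost without any of 12 mice. The median difference was 0.20. Of 32 box C/D snoRNAs, 31 were higher and 11 met the criterion, with a median of 0.27, and of 22 box H/ACA snoRNAs, 17 were higher and 1 met the criterion, with a median of 0.14.

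Snord57 lay between 8.40 and 9.63 (median 9.03) in HF/HF and between 5.44 and 9.20 (median 8.21) in LF/HF mice. LF/HF mouse 2 was far below all others with 5.44, the next lowest being LF/HF mouse 3 with 7.68, and the difference was 0.91 ± 0.35 (SE, exact P = 0.0162), or 0.58 without LF/HF mouse 2. Snord22 lay between 8.0 and 8.96 (median 8.49) in HF/HF and between 6.41 and 8.69 (median 7.96) in LF/HF mice, a difference of 0.69 ± 0.22 (SE, exact P = 0.0107). For Snord16a the groups overlapped in range (9.40 to 9.94 in HF/HF and 8.47 to 9.97 in LF/HF mice), but only LF/HF mouse 4 lay above the HF/HF median of 9.79, and the difference was 0.55 ± 0.15 (SE, exact P = 0.00403). Snord42a (0.54), Snord87 (0.53), Snord95 (0.50), Snora28 (0.50), Snord61 (0.46), Snord73a (0.42), Snord32a (0.41), Snord33 (0.32) and Snord15b (0.27) also met the criterion. In all 12, the LF/HF mice spread over a wider range than the HF/HF mice or reached lower, which their choice as higher in HF/HF mice makes likely.

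Over the 58 snoRNAs the mean reached 6.24 ± 0.16 in HF/HF mice and 6.02 ± 0.33 in LF/HF mice (SD, n = 9 each). It lay between 6.08 and 6.54 (median 6.18) in HF/HF and between 5.43 and 6.59 (median 6.00) in LF/HF mice. All 9 HF/HF mice were above the LF/HF mean, which the low value of LF/HF mouse 2 pulled down. HF/HF mice 2 and 3 lay nearest to it, with 6.09 and 6.08. At least 8 of 9 HF/HF mice were above it in 5.0% of all genes, a share of single genes and not of list means. LF/HF mouse 2 was the lowest of the 18 in 30 of the 58 snoRNAs, and LF/HF mouse 7 had the highest mean of all. Without LF/HF mouse 2, 45 snoRNAs were still higher, 7 of them and 2 lower by the criterion, and the median was 0.11. Leaving out any 1 mouse gave 8 to 19 snoRNAs by the criterion in either direction and medians of 0.11 to 0.29. The calls of Snord57, Snord22, Snord16a, Snord42a, Snord87 and Snord73a were kept in all 18 cases, and those of Snord32a and Snord33 were lost only without LF/HF mouse 2, and those of Snord61, Snord95, Snora28 and Snord15b without any of 6 to 9 mice. Within series 1 and series 2 of the array names, 7 and 11 snoRNAs were higher by the criterion, with medians of 0.14 and 0.28. RNA quality of single mice was not analysed here, and its part in these values was not tested. The study extracted total RNA with an RNeasy Mini kit. Whether RNAs as short as snoRNAs were recovered evenly from mouse to mouse was not tested either.

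The host genes did not show the difference of their snoRNAs. A measured host gene was found by position in GRCm38.p6 for 30 snoRNAs, and these were 23 different hosts. Of the 23 hosts, 8 were higher and 15 lower, with a median difference of -0.05, and 1 of 23 met the criterion (against 2.25% of all genes), Kansl2 (0.41), a subunit of a histone acetyltransferase complex. Of the 30 snoRNAs, 23 had a higher difference than their host. Nop56, the host of Snord57 and itself a core protein of box C/D particles, differed by -0.11, Rpl4, the host of Snord16a, by -0.14, and Rpl13a, the host of Snord32a and Snord33, by -0.07. Intensities of a host may include its introns only where probes lie in them, and strand was not used in matching by position.

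**Figure D3:**
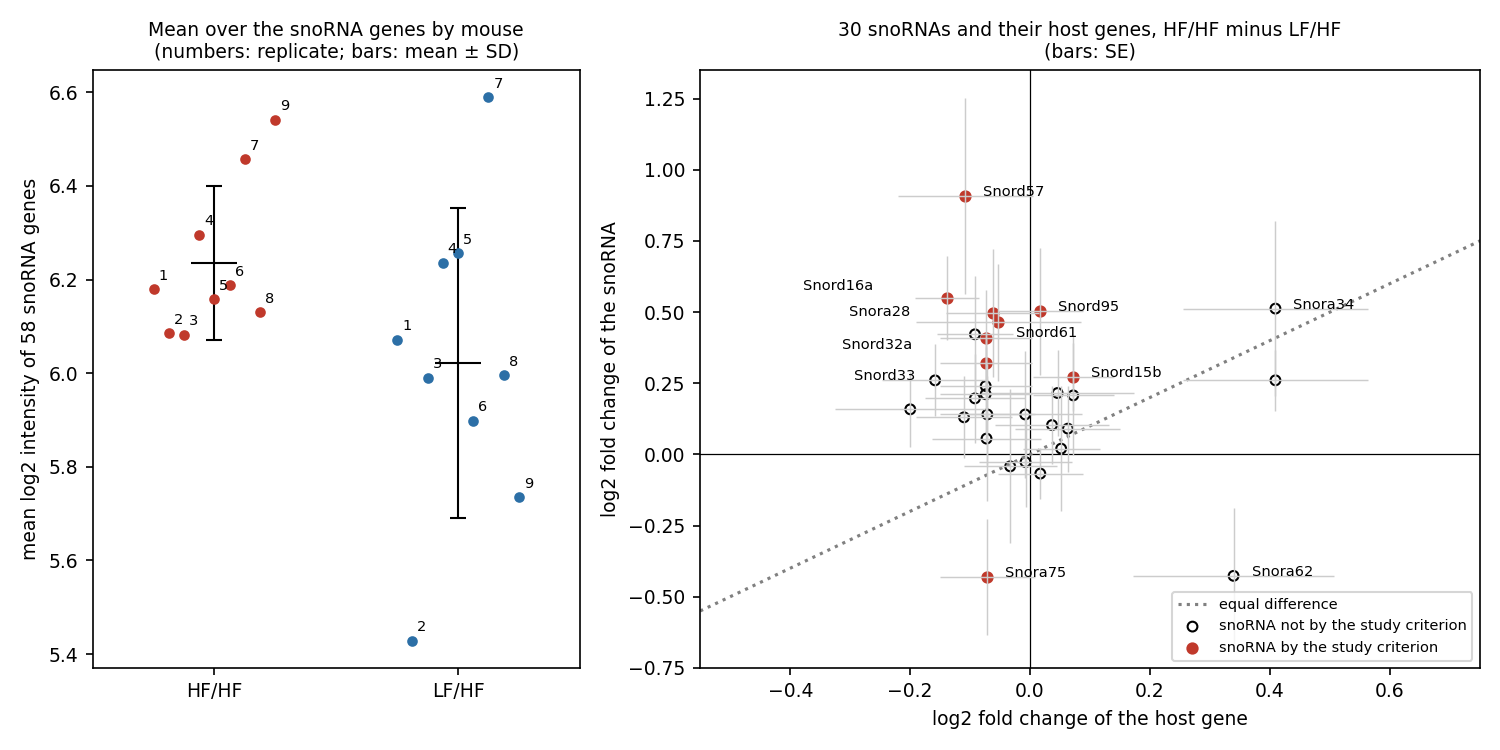
Mean log2 intensity of 58 snoRNA genes in each of the 9 HF/HF and 9 LF/HF mice (left, with group mean and SD), and log2 fold change of 30 snoRNAs (vertical axis) against that of their host genes (horizontal axis), with SE bars (right). LF/HF mouse 2 has the lowest mean (5.43), and 23 of the 30 snoRNAs lie above the line of equal difference.

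Genes of the extracellular matrix were mostly higher in HF/HF offspring. Of 32 genes for collagens and fibrosis, 27 were higher, 4 of them by the criterion (12.5%, against 1.03% of all genes), and none was lower by it. The median difference was 0.12. Col3a1, a fibrillar collagen, lay between 5.05 and 6.06 (median 5.39) in HF/HF and between 4.66 and 5.36 (median 4.94) in LF/HF mice. HF/HF mice 3 and 7 were highest with 6.06 and 5.85, 5 HF/HF mice lay above every LF/HF mouse, and the difference was 0.45 ± 0.13 (SE, exact P = 0.00317). Col1a1, the main fibrillar collagen of scars, was higher by 0.36, with HF/HF mouse 3 at 5.62 and all other mice at or below 5.02, and its call was lost without HF/HF mouse 3. The inhibitor of metalloproteases Timp2 (0.28) and the smooth muscle protein Tagln (0.31) completed the 4, and their calls were lost without any of 4 and any of 12 mice.

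Outside the list, the procollagen protease Adamts2 (0.38), the cell-surface proteoglycan Gpc6 (0.60), and the receptors Fgfr1 (0.49) and Pdgfrb (0.33) were higher by the criterion. Lrat, which stores retinol as ester in stellate cells, ran the other way. It lay between 5.44 and 6.39 (median 5.81) in HF/HF and between 5.95 and 7.02 (median 6.41) in LF/HF mice, with every HF/HF mouse under the mean of LF/HF (at least 8 of 9 were in 7.31% of all genes), 5 of them below every LF/HF mouse, and a difference of -0.53 ± 0.14 (SE, exact P = 0.00271). The stellate cell markers were split, with 5 of all 8 higher and a median of 0.04. Of the 8, 1 met the criterion each way, Lrat as lower and Pdgfrb, named above, as higher (25.0%, against 2.25% of all genes). Without HF/HF mouse 3 the call of Pdgfrb was lost. Des (-0.35) and Reln (0.04) did not meet the criterion. In whole liver, fewer cells of a type and less RNA per cell cannot be told apart. On leaving out 1 mouse, 1 to 5 genes of the matrix list met the criterion, and 1 did so without HF/HF mouse 3.

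Genes of cell division were also higher on the whole. Of 30 proliferation genes, 25 were higher and 3 of the 30 met the criterion (against 1.03% of all genes), with a median of 0.09. Mki67, which marks cycling cells, lay between 2.40 and 3.81 (median 2.73) in HF/HF and between 2.19 and 2.72 (median 2.52) in LF/HF mice. HF/HF mouse 3 was highest with 3.81 and HF/HF mouse 8 followed with 3.23, 5 HF/HF mice lay above every LF/HF mouse, and the difference was 0.39 ± 0.15 (SE, exact P = 0.0146). Cdc20, an activator of the anaphase-promoting complex, was higher by 0.34, and the topoisomerase Top2a by 0.32, the call of Top2a being lost without any of 5 mice. These levels lay near the low end of the arrays, where 9 of the 30 genes reached the median level of all genes. The median of the list was 0.04 without HF/HF mouse 3, and 0.22 and -0.03 within series 1 and series 2 of the array names.

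Of 8 markers of Kupffer cells and macrophages, 7 were lower with the HF parental diet, 2 of these by the criterion (25.0%, against 1.22% of all genes), and the median difference was -0.19. Without HF/HF mouse 3 none of the 8 met the criterion. Cd163, the scavenger receptor for haptoglobin and haemoglobin, which the study selected on these samples for differing at both ages, lay between 3.14 and 4.65 (median 4.04) in HF/HF and between 3.54 and 4.71 (median 4.46) in LF/HF mice. HF/HF mice 7 and 3 were lowest with 3.14 and 3.18, LF/HF mouse 7 was lowest of its group with 3.54, and the difference was -0.45 ± 0.19 (SE, exact P = 0.0451). The call was lost without HF/HF mouse 3 or HF/HF mouse 7, the mice with the highest Col3a1. Vsig4, a complement receptor of Kupffer cells, was lower by 0.37 and Clec4f, their lectin, by 0.21, below the 1.2-fold limit. Marco (0.22) was the 1 marker with a positive difference. Within series 1 of the array names 4 of the 8 markers were lower and the median was -0.03.

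Tfec and Itga5 had little overlap between the groups, which follows in part from naming them for their values. Tfec, a transcription factor of macrophages, lay between 3.16 and 3.81 (median 3.61) in HF/HF and between 3.80 and 4.09 (median 3.94) in LF/HF mice. Of the HF/HF mice 7 lay below every LF/HF mouse, and the difference was -0.40 ± 0.09 (SE, exact P = 0.000123). Itga5, the alpha chain of the fibronectin receptor, ranged over 4.88 to 5.42 in HF/HF and 5.32 to 5.79 in LF/HF mice, again with 7 HF/HF mice below every LF/HF mouse, and was lower by 0.33. The mannose receptor Mrc1 (-0.28), whose call was lost without any of 5 mice, and the Fc receptor Fcgr1 (-0.35) were lower by the criterion. The sinusoidal lectin Clec4g was lower as well (-0.27), in a list of 8 endothelial markers of which 7 were lower with a median of -0.10. Clec4g was the 1 of the 8 that met the criterion (12.5%, against 1.22% of all genes), and none did without LF/HF mouse 3.

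Pik3ap1, an adaptor of phosphoinositide 3-kinase in immune cells, ran the other way. It lay between 7.59 and 8.21 (median 8.0) in HF/HF and between 7.48 and 7.87 (median 7.76) in LF/HF mice, with 8 of 9 HF/HF mice above every LF/HF mouse and HF/HF mouse 9 among the LF/HF values, a difference of 0.30 ± 0.08 (SE, exact P = 0.00243). Cytokine genes were split. The chemokines Ccl3 (0.37) and Cx3cl1 (0.34) and the interleukin 1 receptor antagonist Il1rn (0.35) were higher, and the chemokine Cxcl9 (-0.36) and interleukin 1 alpha, Il1a (-0.33), were lower by the criterion. The calls of Cxcl9 and Il1a were lost without any of 13 and any of 8 mice (exact P = 0.0843 and 0.0501), and that of Cx3cl1 without either of 2 mice. Of 35 chemokine genes 21 were higher, and of 24 genes of the interleukin 1 family 12 were, with medians of 0.03 and 0.01. Among 6 B cell markers all 6 were higher and none met the criterion, with a median of 0.15. Of the 6, 2 reached the median level of all genes, and the median difference of the list at 12 weeks was -0.07. Il1r1 differed by 0.26 and Saa1 by 0.19, and the study had chosen both on these samples for differing at 12 weeks and not at 28 weeks. Real-time qPCR in the study found both significantly changed at 12 weeks only.

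A set of housekeeping lists was lower by small amounts spread over many members. Of 42 proteasome genes, 36 were lower with a median of -0.05, 2 of them by the criterion (4.76%, against 1.22% of all genes), and 1 without LF/HF mouse 2. These were Psme2, a subunit of the interferon-induced activator (-0.34), for which 5 HF/HF mice lay below every LF/HF mouse, and the core subunit Psma5 (-0.33), whose call was lost without any of 7 mice. Of 79 genes of the mitochondrial ribosome, 59 were lower with a median of -0.08, and 1 met the criterion (1.27%, near the share of all genes), Mrpl18 (-0.28), whose call was lost without any of 5 mice. Within series 2 of the array names 41 of the 79 were lower and their median was -0.01.

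Of 31 basal factors of RNA polymerase II, 25 were lower with a median of -0.09, and the mean over the list was below that of LF/HF in all 9 HF/HF mice (5.34 ± 0.04 in HF/HF mice and 5.42 ± 0.06 in LF/HF mice, SD, n = 9 each). Taf7, a subunit of TFIID, was the 1 of 31 members lower by the criterion (-0.27, against 1.22% of all genes), and its call was lost without any of 7 mice, with no member called without LF/HF mouse 2. Of 52 genes of ribosome biogenesis, 37 were lower with a median of -0.08. Utp18 (-0.30) was lower and Rrp9 (0.30), which binds the U3 snoRNA, was higher by the criterion, 1 of 52 each way, near the 1.22% and 1.03% of all genes, and the calls were lost without any of 4 mice and without HF/HF mouse 5. Of 23 heat shock genes 18 were lower and none met the criterion. The median of all genes did not move with these lists, and most of their members differed by less than 1.2-fold.

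**Figure D4:**
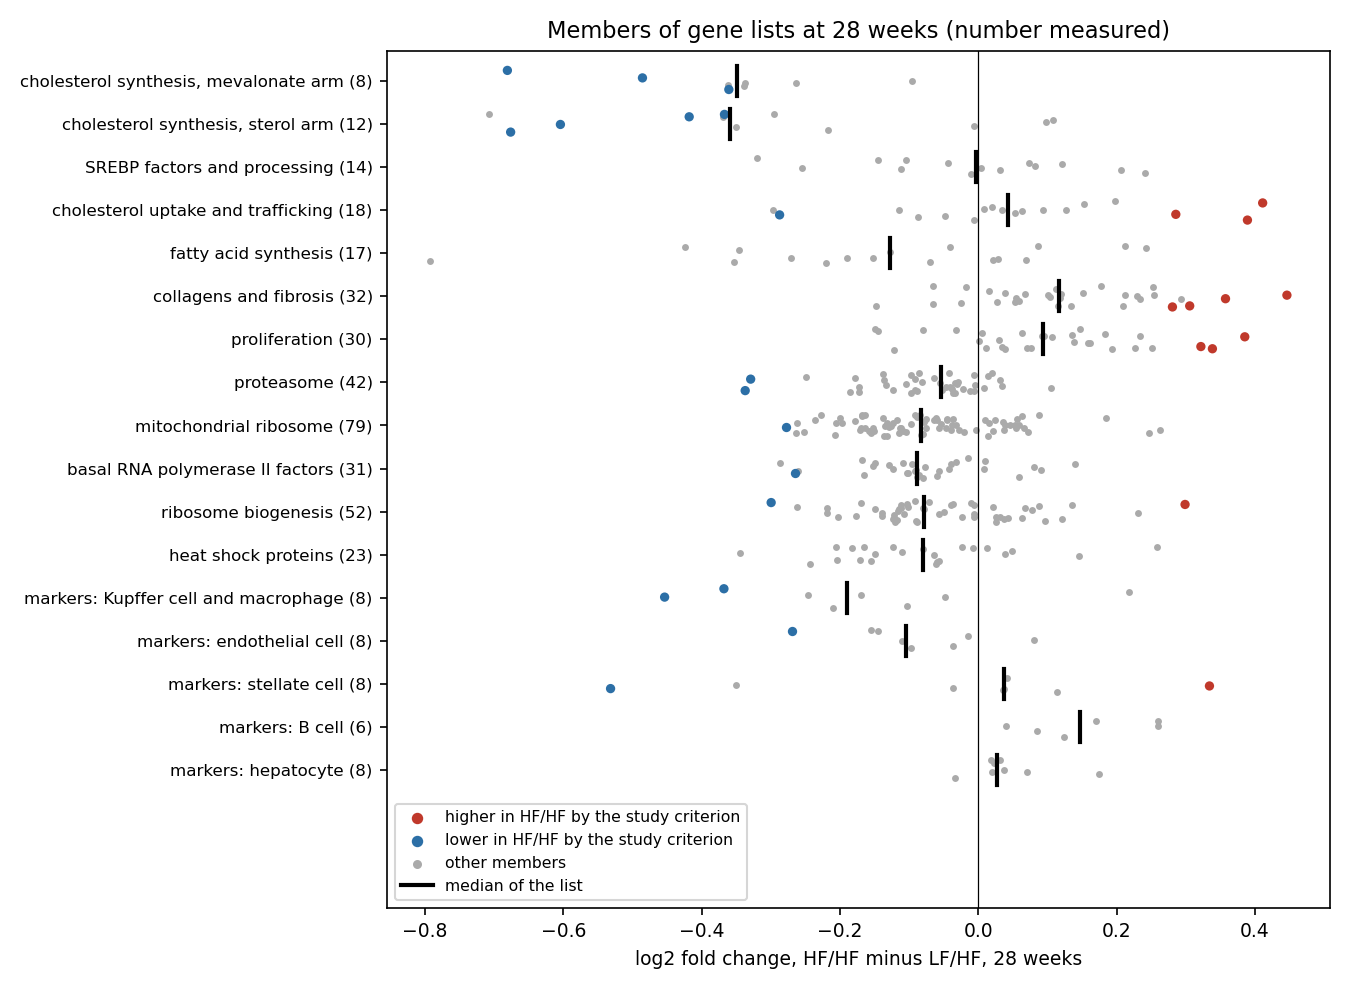
Log2 fold change (HF/HF minus LF/HF, horizontal axis) of each measured member of 17 gene lists at 28 weeks, with members that met the study criterion in red (higher) or blue (lower), the others in grey, the list median as a black bar and the number of members in parentheses. The medians of both arms of cholesterol synthesis lie lowest among the lists drawn (-0.35 and -0.36).

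Among genes above the median level, Pdf had the smallest P in limma. It encodes the enzyme that removes the formyl group from newly made mitochondrial proteins. It lay between 6.46 and 6.83 (median 6.72) in HF/HF and between 6.81 and 7.41 (median 7.07) in LF/HF mice. Of the HF/HF mice 7 lay below every LF/HF mouse and the other 2, mice 3 and 8, lay just above the lowest LF/HF value, and the difference was -0.42 ± 0.08 (SE, exact P = 0.000165). Tra2b, a splicing factor, lay between 5.90 and 6.45 in HF/HF and between 6.23 and 6.72 in LF/HF mice, with 6 HF/HF mice below every LF/HF mouse and a difference of -0.36 ± 0.09 (SE, exact P = 0.00136). The ubiquitin-conjugating enzyme Ube2e1 (-0.35) and Cdc26, a subunit of the anaphase-promoting complex (-0.33), were lower, and the apoptosis inhibitor Bcl2l1 (0.30) was higher, a call lost without HF/HF mouse 5.

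Several genes of metabolism met the criterion. Acmsd, which diverts tryptophan breakdown away from NAD synthesis, lay between 5.50 and 7.41 (median 6.13) in HF/HF and between 4.96 and 6.18 (median 5.79) in LF/HF mice. HF/HF mice 3 and 7 were highest with 7.41 and 7.18, and the difference was 0.56 ± 0.23 (SE, exact P = 0.0490), with the call lost without HF/HF mouse 3 or 7 or LF/HF mouse 1 or 5. Chka, a choline kinase of phosphatidylcholine synthesis, was higher by 0.49 and lost its call without any of 11 mice, and the glutathione transferase Gstm1 was higher by 0.28, a call lost without any of 6 mice. The lipid binding proteins Fabp7 (-0.39) and Fabp5 (-0.36) and the carboxylesterase Ces1d (-0.31) were lower, with calls lost without any of 4, 5 and 2 mice.

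The organic anion transporter Slco1a1 lay between 7.67 and 9.92 (median 9.30) in HF/HF and between 9.46 and 9.88 (median 9.66) in LF/HF mice, a difference of -0.43. HF/HF mouse 3 was far below the others with 7.67, and the call was lost without it, when the difference was -0.23, or without any of 6 other mice. Cyp2c54, a cytochrome P450, had a similar spread (7.58 to 9.56 in HF/HF and 9.08 to 9.61 in LF/HF mice, difference -0.41), its difference was -0.24 without HF/HF mouse 3, and its call was lost without that mouse or any of 6 others. The ubiquitin ligase Rfwd3, which acts in DNA repair, was higher by 0.70 ± 0.19 (SE, exact P = 0.00329), and lay between 4.47 and 5.27 (median 4.70) in HF/HF and between 3.25 and 4.84 (median 4.19) in LF/HF mice. The calls of Rfwd3, Pdf, Tra2b, Tfec, Itga5, Pik3ap1, Lrat and Col3a1 were kept whichever mouse was left out. Cox7a1, a muscle form of a cytochrome oxidase subunit, was lower by 0.49, with LF/HF mouse 8, the mouse with the skeletal muscle markers, highest at 5.52, and the difference was -0.30 without that mouse.

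At 12 weeks, with 7 HF/HF and 7 LF/HF mice, 617 genes met the study criterion (2.92%) in a fit of all 32 arrays. That fit gave 454 genes at 28 weeks. Of the 474 genes of the 28-week fit, 29 were among the 617 (6.12% of the 28-week genes and 4.70% of the 12-week genes), 20 in the same direction. Of the 474 genes, 55.3% had the same sign at 12 weeks, against 49.8% of all genes. Over all genes the differences at 28 and 12 weeks correlated at 0.086. The difference of the diet effect between the ages, fitted over all 32 arrays, passed the adjusted p for no gene (smallest adjusted p 0.749), with 1009 genes at an unadjusted P under 0.05 (4.78%). Cd163, selected by the study for differing at both ages, was lower by the criterion at both ages, by 0.45 at 28 weeks and 0.64 at 12 weeks. Real-time qPCR in the study also found Cd163 altered at both ages. Rfwd3 (0.70 at 28 weeks and 0.75 at 12 weeks), Acmsd (0.56 and 0.64), Chka (0.49 and 0.84), Adamts2 (0.38 and 0.37) and Gstm1 (0.28 and 0.28) were higher by the criterion at both ages. Pdf (-0.42 and -0.33), Fabp5 (-0.36 and -0.78) and Stard4 (-0.29 and -0.40) were lower at both.

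Other genes met the criterion at 1 age, or at both in opposite directions. The N-acetyltransferase Nat8f5 was lower at 28 weeks (-0.58) and higher at 12 weeks (0.52) by the criterion, and the difference between the ages was not past the adjusted p (adjusted p = 0.974 in limma). Lrat was lower at 28 weeks (-0.53) and differed by 0.38 at 12 weeks. Lpin1, a phosphatidate phosphatase of triglyceride synthesis that the study followed, differed by 0.10 at 28 weeks and by -0.84 at 12 weeks. Aacs, which activates acetoacetate for lipid synthesis, differed by -0.44 at 28 weeks and -1.24 at 12 weeks, and Plaat3, a phospholipase of adipose tissue, by -0.20 and -0.66. The study had chosen Lpin1, Aacs and Plaat3 on these samples for differing at 12 weeks and not at 28 weeks, so that their contrast between the ages restates the choice. Real-time qPCR in the study bore out the difference at 12 weeks for Lpin1 and Aacs, but not for Plaat3, named Pla2g16 there. The adjusted p of the difference between the ages was 0.974 for each of these 4 genes as well.

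As lists, the 20 enzymes of cholesterol synthesis had a median of -0.36 at 28 weeks and -0.19 at 12 weeks, with 18 and 14 lower and 7 and 2 by the criterion. The snoRNAs had medians of 0.20 at 28 weeks and 0.05 at 12 weeks, with 50 and 35 of 58 higher. Acat2 had the smallest limma P for a difference between the ages among the 20 enzymes, with -0.36 at 28 weeks and 0.14 at 12 weeks (adjusted p = 0.974).

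**Figure D5:**
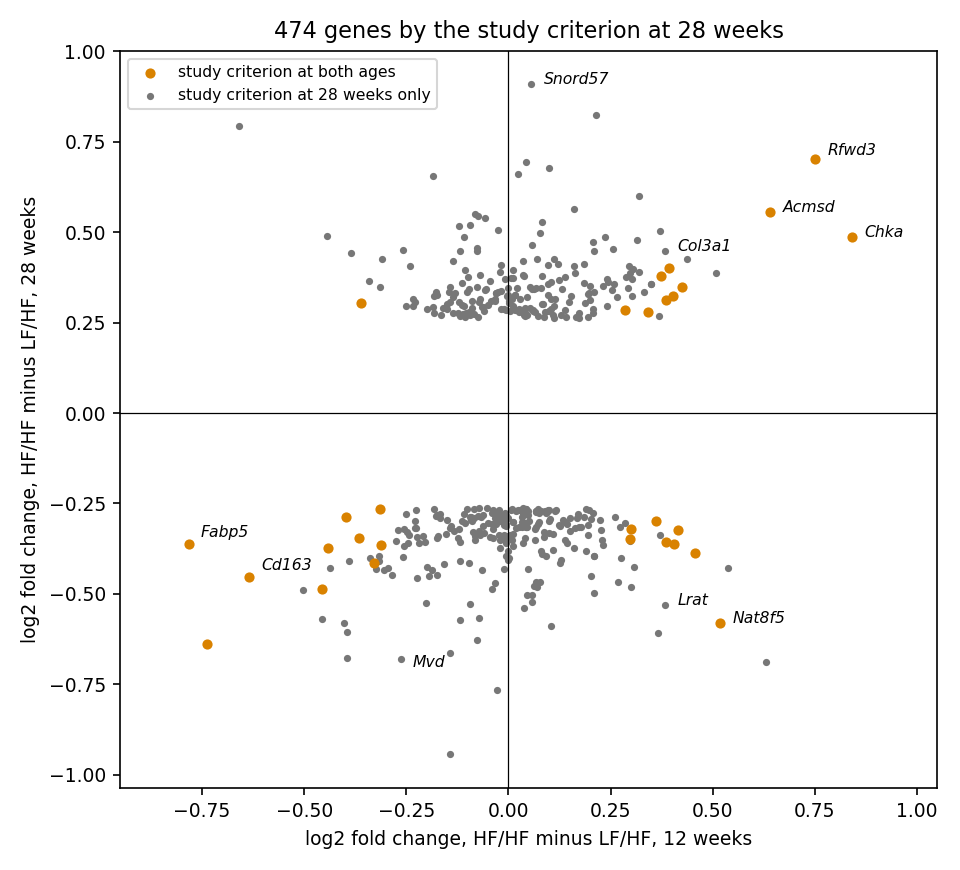
Log2 fold change (HF/HF minus LF/HF) at 28 weeks (vertical axis) against that at 12 weeks (horizontal axis) for the 474 genes that met the study criterion at 28 weeks, which leaves the band around 0 on the vertical axis empty. The 29 genes that met it at both ages are in orange, 20 of them in the same direction.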

How the data were processed

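Gene expression in livers of male offspring was measured on Mouse Gene 1.1 ST arrays of Affymetrix. The authors normalized the signals by the robust multichip average (RMA) in MADMAX, summarized probes by Entrez gene, and the deposited values are linear intensities of 21115 probe sets. The genome build behind their annotation and the tool versions are not given in the sources used here. Columns of the authors' own fold changes and p-values were not used. Array names in the headers of a second table of the same arrays gave 2 series, used as blocks and alone, and 18 mice entered the comparison.

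The log2 of each deposited intensity was taken with no filter on level, and 21113 genes were named by the RefSeq table of GRCm38.p6 (20932) or by the authors' table. Background signal was not analysed here, and the number of mice limits the precision. In R 4.3.3, limma 3.58.1 was fitted to the 18 arrays with 1 mean per group and eBayes with an intensity trend. Adjustment for multiple tests followed Benjamini and Hochberg and covered all genes. For 119 genes a two-sided exact permutation test of the difference in means ran over all 48620 splits of the mice, without adjustment. Values for 12 weeks and for the difference between the ages came from a fit of all 32 arrays. The study describes a paired test, but its pairs are not given, so groups were compared as independent. The fit was tested on simulated data with known changes.

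The members, the 52 pathway lists and the 13 marker lists were chosen with earlier results of these data known. Lists are described by counts and medians, with no test. Named genes were the 12 highest and the 12 lowest fold changes among genes by the study criterion (without predicted genes, receptors for odours, small RNAs and genes below the median level), the 3 highest and 3 lowest small RNAs, the 6 higher and 6 lower genes of smallest P, up to 4 members by the criterion of each list described, all enzymes of cholesterol synthesis, the genes the study followed, and the 4 genes each way with the smallest P for an age difference. Some genes that this rule names are not reported here. Genes without a call are named beside their lists after their values were seen.

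The alternatives were other priors of eBayes, all 32 arrays in the fit, the replicate number or the array name series as a block, each series alone, array weights, cyclic loess, median centring, brighter genes only, every probe set, other thresholds, and each mouse left out. Leaving out 3 mice that stand apart was added after seeing the data.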

Additional observations from a re-analysis of the deposited data

Results flagged for a closer look

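Among 370 groups of 9 values (named genes and list means, each diet group apart), 27 held 1 mouse far from the other 8. Chance gives about 1 in 20, so these are listed as values with no explanation.

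LF/HF mouse 2 was far below its group for Snord57 (5.44) and Snord32a (8.56). LF/HF mouse 8 was far above it in the skeletal muscle markers (5.98), in Cox7a1 (5.52) and in the mean over gluconeogenesis genes (7.23), and far below it for Zfp975 (4.23) and Cdc26 (6.07). LF/HF mouse 7 was low for Cd163 (3.54) and high for Rpl34 (6.32), and LF/HF mouse 4 was high for Itga5 (5.79).

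HF/HF mouse 3 was apart most often. It was high in the proliferation genes (3.25), the cell division markers (2.98), the interferon-stimulated genes (5.69) and Ifi211 (5.40), and low in the major urinary proteins (5.77), Slco1a1 (7.67), Angptl6 (4.19) and Socs5 (2.99). HF/HF mouse 9 was low for Mbtps1 (6.34), Pik3ap1 (7.59) and the apolipoprotein genes (10.06) and high for Snord73a (5.63). HF/HF mouse 2 was high in the rhythmic liver genes (6.21) and low for Psma5 (2.80). HF/HF mouse 8 was high in the T and NK cell markers (3.29) and in the skeletal muscle markers (2.76), and HF/HF mouse 4 was high for Rapgef4 (8.34).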

How the results depend on the processing

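No gene passed the adjusted p in limma under any alternative run, neither for the diet nor for its change with age. The 474 genes of the study criterion became 1268 within series 1 of the array names, 276 among brighter genes (fewer were tested), 140 at P under 0.01 and 20 at a fold over 1.5, and 418 (without LF/HF mouse 1) to 695 (without LF/HF mouse 8) with 1 mouse left out. Genes whose groups did not overlap became 456 and 246 within series 1 and 2, where groups are smaller, 1 after median centring, and 0 to 2 with 1 mouse left out. With the replicate number as a block 500 genes met the criterion (229 higher and 271 lower, 426 of them shared with the 474). Same-numbered mice were no pairs by the labels, their deviations correlated at -0.096 to 0.103, and 1 of 9 correlated best with its own number. The signs of 3 named genes turned: Ggps1 was 0.027 within series 2, Il1a was 0.031 within series 1, and Tm7sf2 was 0.011 with the series as a block, 0.044 within series 1, 0.039 with array weights, 0.00155 after cyclic loess, 0.13 without the 3 mice, and between -0.074 and 0.072 with 1 mouse left out. The cause was not tested. Of the 119 genes followed, 97 met the criterion, of which 34 still did within series 2, 44 within series 1, and 69 to 89 with 1 mouse left out.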

Other observations

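Several lists that were not described above leaned one way with few or no calls. In HF/HF offspring 23 of 30 acute-phase genes were higher (median 0.04), of 21 genes of periportal hepatocytes and the urea cycle 15 were higher (median 0.07), and of 20 metallothionein and iron genes 15 were higher (median 0.08), none by the study criterion. Uroc1, an enzyme of histidine breakdown (0.25), and Mt1, a metallothionein (0.61), were singled out from these after their values were seen. The 19 genes of the core circadian clock (median -0.0047), the 28 imprinted genes (median 0.0016) and the 43 kinesins (median 0.02) held no gene by the criterion.

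Genes by the study criterion were more frequent among genes of middle level (3.18%) than among genes of high (2.07%) or low level (1.48%).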
